A study of Mus musculus with 14 samples.

Results

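The circadian clock of muscle cells turns many genes up and down over the day, and 10 of its output genes, grouped by prior knowledge around the phase of Dbp, are described here across all libraries of the study. They are Dbp, Tef and Hlf, the repressor Ciart, the period genes Per1, Per2 and Per3, the nuclear receptors Nr1d1 and Nr1d2, and the repressor Bhlhe41. The members were selected on earlier results of these libraries, in which genes of this group were higher in OE-WD than in CT-WD, and were found by their gene symbols. All 10 were present among the 54532 genes of the deposited tables, and all 10 were among the 15458 genes that passed the filter on low counts.

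In the core loop of the clock, the proteins Clock and Bmal1 (gene Arntl) bind E-box sequences and switch on the Per and Cry genes, whose proteins return to the nucleus and block Clock and Bmal1. The same activators switch on Nr1d1, Nr1d2, Ciart, Bhlhe41 and the PAR bZIP factors Dbp, Tef and Hlf, so that these transcripts share a broad phase, while Arntl, which Nr1d1 and Nr1d2 proteins repress, peaks at the opposite time of day. In skeletal muscle the clock acts on genes of fuel use, myogenic factors and sarcomere proteins.

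Bulk polyadenylated RNA of skeletal muscle from male FVB/N mice was sequenced in 14 libraries. EC-Myc OE (OE) mice carried a human c-Myc transgene behind a tetO promoter together with the transactivator tTA driven by the endothelial Cdh5 promoter, and the transgene was switched on in endothelial cells by withdrawing doxycycline at 4 to 6 weeks of age. Control (CT) littermates lacked tTA, and both genotypes ate a control diet (CTD) or a western diet rich in fat (WD) for 20 weeks by the labels, while the study's text also gives a shorter time for the transcriptome. By the labels, 3 libraries came from CT-CTD, 3 from CT-WD, 4 from OE-CTD and 4 from OE-WD, and a number after a group's name is the replicate. The study used soleus and gastrocnemius, and the labels do not say which muscle a library came from. Mice were kept under a light and dark cycle, and the clock time at which each mouse was killed is not given, so differences between groups in level and in time of sampling cannot be told apart for these genes. The RNA holds all cell types of the muscle, so that fewer cells of a type and less RNA per cell cannot be told apart either.

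Several features of the libraries bear on every value. The number of reads counted per library ran from 21833839 to 28519159. OE-CTD 4 and OE-WD 4 stood apart from the other libraries of their groups, with a chi-square per degree of freedom of 36.3 to 42.4 against the other libraries of the same group, where the others gave 7.76 to 15.1 among themselves, and with 14.9% and 14.5% of their reads on mitochondrial genes against 9.66% to 12.8% elsewhere. CT-WD 1 and CT-WD 3 were the pair of replicates farthest apart, at 50.3. The closest CT pair was CT-CTD 2 and CT-CTD 3 at 16.5. Each CT pair was thus farther apart than any pair among replicates 1 to 3 of an OE group. The code of each OE-WD library ends in the same digits, 3 of the 4 OE-CTD codes share another ending, and no CT codes share one. What the digits stand for is not given, and shared digits and genotype cannot be told apart. Whether libraries with shared digits came from separate animals is not given either, so n counts libraries in every group mean, SD and test, and may count fewer animals in the OE groups. The legend of the study's transcriptome plot gives the smaller groups as the control diet, whereas the labels give them as the CT genotype. The study's text also gives Zbtb16 as higher in OE-WD than in CT-WD. By the labels it was lower there, and higher in OE-WD than in OE-CTD. The labels were kept, and the doubt holds for each value given by genotype or diet. If the names CT-WD and OE-CTD were exchanged, the comparison of OE-CTD with CT-CTD would become that of CT-WD with CT-CTD, and that of OE-WD with CT-WD would become that of OE-WD with OE-CTD. Each control diet group would then hold 3 libraries and each western diet group 4, the sizes the legend gives. Zbtb16 would then be higher in OE-WD than in CT-WD, the direction the study's text gives. Whether the names were exchanged was not tested.

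The tissue label was checked on 10 muscle genes, among them Acta1, which encodes skeletal actin and was the most abundant at a mean of 30565 FPKM (reads scaled to gene length and library size). All 10 were detected, and their summed level ran from 56109 to 76125 FPKM over the libraries. The summed level of the 10 clock output genes was far lower and was 163.7, 168.6 and 175.9 FPKM in CT-CTD, 149.5, 151.5 and 125.2 FPKM in CT-WD, 214.9, 237.9, 206.3 and 248.7 FPKM in OE-CTD and 198.2, 243.4, 202.5 and 243.3 FPKM in OE-WD. Each OE library lay above each CT library in this sum. It is carried mostly by Nr1d1, with a mean of 23.8 FPKM in CT-CTD and 61.4 FPKM in OE-CTD, and Dbp, with 31.6 and 48.0 FPKM, while Tef, Hlf, Per2 and Per3 had lower means in OE-CTD, and for OE-WD over CT-WD it restates the selection of the members.

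Among the members, Tef had the highest mean level over the 14 libraries at 47.0 FPKM, followed by Nr1d1 at 40.9 FPKM, Dbp at 36.9 FPKM, Nr1d2 at 24.5 FPKM and Per1 at 23.4 FPKM. Bhlhe41 at 6.59 FPKM, Per2 at 5.61 FPKM, Ciart at 3.64 FPKM, Per3 at 3.39 FPKM and Hlf at 3.05 FPKM made up a lower tier. The tiers were apart in each library, since Per1 exceeded Bhlhe41 in FPKM in 14 of 14. Within them the order was loose: Tef exceeded Nr1d1 in 8 of 14 libraries, Nr1d1 exceeded Dbp in 8, Dbp exceeded Nr1d2 in 11 and Nr1d2 exceeded Per1 in 8. In the lower tier Bhlhe41 exceeded Per2 in 9 of 14 libraries, Per2 exceeded Ciart in 9, Ciart exceeded Per3 in 7 and Per3 exceeded Hlf in 10. The order also turned with the group. In OE-CTD the means of Nr1d1 at 61.4 FPKM and Dbp at 48.0 FPKM exceeded that of Tef at 44.5 FPKM. Ciart had the lowest mean of all members in CT-CTD, at 1.98 FPKM, and in CT-WD, at 1.33 FPKM.

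**Figure D1:**
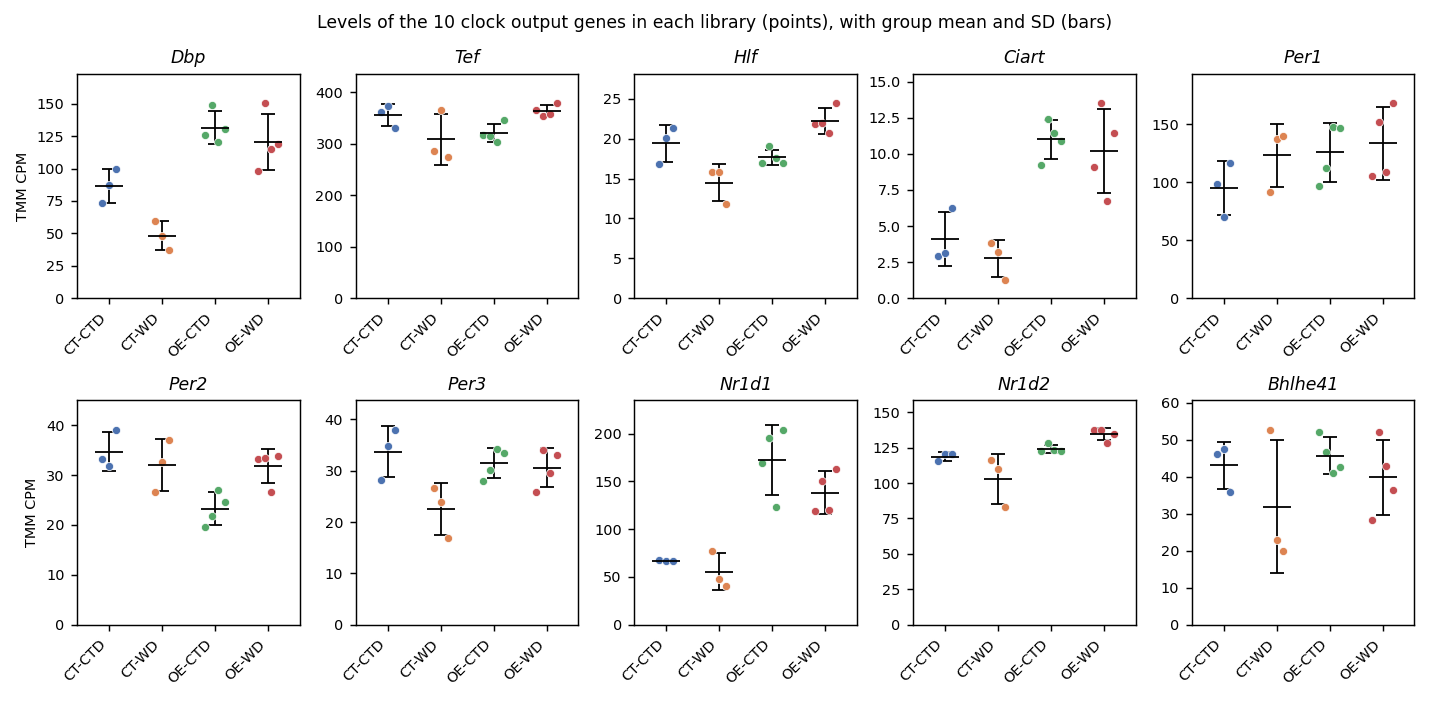
Each panel plots the TMM-normalised CPM of a clock output gene (vertical axis, starting at 0) in the 4 groups (horizontal axis); points are libraries and bars the group mean and SD over 3 CT or 4 OE libraries. For Dbp, Ciart and Nr1d1 the OE-CTD points lie above the CT-CTD points and the OE-WD points above the CT-WD points, whereas the Per1 and Bhlhe41 points of all groups overlap.

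The PAR bZIP factors are transcription factors that bind D-box sequences and pass clock time on to genes of metabolism. Dbp, whose transcript has a large daily amplitude, stood at 73.4, 87.1 and 99.8 CPM (TMM-normalised counts, corrected for library size) in CT-CTD and at 59.6, 48.0 and 37.3 CPM in CT-WD. The OE libraries had 126, 149, 121 and 130 CPM on CTD (OE-CTD) and 98.3, 150, 115 and 119 CPM in OE-WD. On CTD each OE library exceeded each CT library, and the CT-WD libraries were the lowest of all, with CT-WD 3 at the bottom.

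Hlf was the member with the lowest mean FPKM over the 14 libraries. Hlf had 16.8, 20.1 and 21.3 CPM in CT-CTD and 15.8, 15.8 and 11.8 CPM in CT-WD. It had 16.9, 19.0, 17.6 and 17.0 CPM in OE-CTD and 21.8, 21.9, 20.7 and 24.4 CPM in OE-WD. The WD libraries thus lay below the CTD libraries in CT and above them in OE, without overlap in either genotype. Tef, a close relative of Dbp, ran from 274 to 379 CPM over all libraries, with group means of 355 ± 21.7 (SD, n = 3), 309 ± 49.6 (n = 3), 320 ± 18.0 (n = 4) and 364 ± 10.8 CPM (n = 4) in CT-CTD, CT-WD, OE-CTD and OE-WD.

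Nr1d1 and Nr1d2 encode Rev-erb alpha and Rev-erb beta, nuclear receptors that bind heme and repress Arntl and other genes with ROR elements. Nr1d1 had 68.1, 66.4 and 66.5 CPM in CT-CTD and 77.4, 48.0 and 40.7 CPM in CT-WD. In OE-CTD it had 169, 195, 123 and 204 CPM, and in OE-WD 119, 151, 120 and 163 CPM. Each OE library exceeded each CT library on either diet, and the CT-CTD libraries lay close together while those of CT-WD spread widely. Nr1d2 moved within a narrow band, with means of 119 ± 2.86 (SD, n = 3), 103 ± 17.7 (n = 3), 124 ± 2.87 (n = 4) and 135 ± 4.22 CPM (n = 4) in CT-CTD, CT-WD, OE-CTD and OE-WD.

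Ciart, also called Chrono, is a repressor that binds Bmal1 and lowers the activity of Clock and Bmal1. Ciart had 2.93, 3.14 and 6.23 CPM in CT-CTD and 3.80, 3.19 and 1.29 CPM in CT-WD. It had 9.20, 12.4, 11.5 and 10.9 CPM in OE-CTD and 9.10, 13.5, 6.76 and 11.4 CPM in OE-WD. No CT library reached the lowest OE library, although CT-CTD 3 came close to OE-WD 3. Bhlhe41, or Dec2, is a basic helix-loop-helix repressor that competes for E-boxes, and it ranged from 35.8 to 47.4 CPM in CT-CTD, from 20.0 to 52.7 CPM in CT-WD, from 41.1 to 52.3 CPM in OE-CTD and from 28.2 to 52.2 CPM in OE-WD. The Bhlhe41 ranges of all 4 groups overlapped.

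The period genes encode the proteins that carry the negative feedback of the clock with the cryptochromes. Per2 had 33.2, 31.8 and 39.1 CPM in CT-CTD, 26.6, 32.7 and 37.0 CPM in CT-WD, 19.5, 21.8, 27.0 and 24.7 CPM in OE-CTD and 33.3, 33.4, 26.7 and 33.7 CPM in OE-WD. Its 4 OE-CTD libraries all lay below the 3 CT-CTD libraries, which is the reverse of the order of Dbp. Per3 ranged from 28.2 to 38.0 CPM in CT-CTD, from 16.9 to 26.7 CPM in CT-WD, from 28.0 to 34.3 CPM in OE-CTD and from 25.8 to 34.1 CPM in OE-WD, so that only CT-WD was apart from CT-CTD. Per1, which responds to acute signals as well as to the clock, ranged from 69.9 to 116 CPM in CT-CTD, from 91.4 to 140 CPM in CT-WD, from 96.5 to 147 CPM in OE-CTD and from 105 to 168 CPM in OE-WD.

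The members differed in how far their group means were apart. The highest group mean was 3.99 times the lowest for Ciart, 3.12 times for Nr1d1 and 2.72 times for Dbp, in each case OE-CTD over CT-WD. For the others this ratio ran from 1.18 for Tef to 1.53 for Hlf. Selecting members that were higher in OE-WD than in CT-WD favours low levels in CT-WD, so these ratios are a description.

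By the labels, the comparison of OE-CTD with CT-CTD asks how muscle with endothelial Myc differs from control muscle on the control diet. If instead CT-WD and OE-CTD carry each other's name, the same libraries would make a diet comparison within CT, and 0 members would be altered between OE-CTD and CT-CTD by edgeR, with 1 at an unadjusted p under 0.05 and a fold change over 1.5. As labelled, it shares no library with the comparison on which the members were selected. Nr1d1 and Ciart were higher in OE-CTD. The log2 fold change of Nr1d1 was 1.37 (SE 0.206, adjusted p = 0.00575 by edgeR's quasi-likelihood test with the Benjamini-Hochberg method), and 4 of 4 OE-CTD libraries were above all of CT-CTD. For Ciart it was 1.42 (SE 0.322, adjusted p = 0.0314 by edgeR), again with 4 of 4 libraries above. Nr1d1 was altered whichever single library was left out, whereas Ciart was no longer altered without CT-CTD 1, CT-CTD 2, OE-CTD 1, OE-CTD 2 or OE-CTD 3, each left out alone. Wherever an alternative left the labels as they are, the adjusted p was between 1.58e-08 and 0.123 for Nr1d1 and between 0.00015 and 0.318 for Ciart. Under exchanged names it would be 0.867 and 0.836, those of CT-WD against CT-CTD as labelled.

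Altered here means a fold change over 1.5 with an adjusted p under 0.05, and 2 of the 10 members met it, both higher, where 1.91% of all genes tested were altered in this comparison. At an unadjusted p under 0.05 with the same fold, 3 members passed, Dbp in addition, where 7.12% of all genes did. Dbp had a log2 fold change of 0.60 (SE 0.160, adjusted p = 0.0599 by edgeR), which missed the adjusted threshold, and was altered with DESeq2, without the filter on low counts and with only the groups compared, each of which gave 3 altered members. Per2 had -0.58 (SE 0.132, adjusted p = 0.0324 by edgeR), with a fold change just under 1.5, and was altered without OE-CTD 3 or without OE-CTD 4. The groups did not overlap for 4 members that were higher in OE-CTD (Dbp, Ciart, Nr1d1, Nr1d2) and 1 that was lower (Per2), against 8.73% and 6.75% of all genes. The remaining log2 fold changes were 0.40 for Per1, 0.08 for Bhlhe41, 0.07 for Nr1d2, -0.10 for Per3, -0.14 for Hlf and -0.15 for Tef. The median over the 10 members was 0.08, and over all genes tested it was -0.00070.

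With the replicate numbers as a block 4 members were altered, Dbp, Ciart, Per2 and Nr1d1, where 511 of 14655 genes were. That fit holds only the groups compared and leaves out OE-CTD 4, which has no CT-CTD library of its number. Leaving out OE-CTD 4 without a block gave 3 altered members and 309 of 15426 genes, so the count is not that of the block alone. Between OE-CTD and CT-CTD libraries of equal number, deviations from the group mean were little related (r = 0.0465, -0.113 and -0.122 across genes, which are not independent). With libraries of shared code digits summed 0 were altered by edgeR, with 3 at an unadjusted p under 0.05 and that fold, where 1 of 16230 genes was altered. That summed setting leaves 2 libraries in OE-CTD and 1 in OE-WD, and the lone library is assumed to vary like those of the other groups.

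Comparing OE-WD with CT-WD asks the same on the western diet. Its results chose the members, so its values are a description. Dbp was higher by 1.32 on the log2 scale (SE 0.164), Ciart by 1.88 (SE 0.335), Nr1d1 by 1.32 (SE 0.206) and Hlf by 0.61 (SE 0.117). Per3 stood at 0.44, Nr1d2 at 0.39, Bhlhe41 at 0.32, Tef at 0.24, Per1 at 0.12 and Per2 at -0.01. In number, 4 members were altered (0.563% of all genes), 4 passed at an unadjusted p under 0.05 with the same fold (5.74% of all genes), and 5 were higher without overlap and 0 lower (6.06% and 5.54% of all genes). Since the members were selected for being higher here, these counts restate the selection. Over single libraries left out, 6 members and 905 genes were altered without CT-WD 1, 1 member and 13, 7 or 4 genes without CT-WD 2, CT-WD 3 or OE-WD 2, 2 members and 6 or 13 genes without OE-WD 3 or OE-WD 4, and 4 members and 87 genes with all libraries. With only the compared groups in the fit, 0 members and 4 genes were altered by edgeR, with 4 members at an unadjusted p under 0.05 and the same fold. The fit with the replicate block also holds only these groups, and leaves out OE-WD 4, which has no CT-WD library of its number. The replicate block gave 0 members and 0 of 14683 genes (3 members at that unadjusted p and fold; libraries of equal number had r = -0.230, -0.158 and -0.0647), and the summed libraries, with 1 left in OE-WD, gave 0 members and 0 of 16230 genes (4 members).

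The diet comparison within CT asks what western diet does in control muscle, and it holds the CT-WD libraries that also chose the members, so its values and counts are a description. Dbp was lower by 0.84 on the log2 scale in CT-WD (log2 fold change -0.84, SE 0.171), Per3 had -0.58 (SE 0.158) and Hlf -0.42 (SE 0.124). The others had -0.56 for Ciart, -0.43 for Bhlhe41, -0.27 for Nr1d1, -0.21 for Nr1d2, -0.20 for Tef, -0.11 for Per2 and 0.37 for Per1. By sign, 9 members were lower and 1 higher, with a median of -0.35 against 0.0071 over all genes. Values of the glucocorticoid-responsive and immediate early genes in this comparison are given below.

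By edgeR 0 members were altered between CT-WD and CT-CTD, as were 0% of all genes. At an unadjusted p under 0.05 with a fold change over 1.5, 1 member passed, Dbp, where 3.05% of all genes did, and Per3 and Hlf reached that p with a smaller fold. DESeq2 called 1 member, also Dbp, and limma on log2(FPKM + 1) called 0. For Dbp, Hlf and Per3 the groups did not overlap, 3 lower and 0 higher, against 5.16% and 4.47% of all genes. Deviations from the group mean were related in CT-CTD and CT-WD libraries of equal replicate number (r = 0.385, 0.123 and 0.203 across genes, which are not independent replicates), and with the number as a block the count of altered members was 0. Without CT-WD 1 it was 1.

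The diet comparison within OE holds the OE-WD libraries that chose the members. Per2 had the largest log2 fold change at 0.45 (SE 0.124), followed by Hlf at 0.33 (SE 0.107), Tef at 0.18 and Nr1d2 at 0.11. On the other side were Nr1d1 at -0.32, Bhlhe41 at -0.20, Dbp at -0.12 and Ciart at -0.11. The median was 0.02, with 5 members higher and 5 lower. By edgeR 0 members were altered (0.00647% of all genes), 0 passed at an unadjusted p under 0.05 with a fold change over 1.5 (1.37% of all genes), though Per2 and Hlf reached that p with a smaller fold, and DESeq2 and limma on log2(FPKM + 1) each called 0. Tef and Hlf were higher in OE-WD without overlap, 2 higher and 0 lower, against 1.84% and 2.23% of all genes. OE libraries of equal replicate number had r = 0.0711, 0.138, 0.142 and 0.338 across genes, which are not independent. With the number as a block 0 members were altered, where 15 of 14653 genes were.

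The difference between the diet responses, OE minus CT, draws on all libraries and is a description, counts included. It was 0.75 on the log2 scale for Hlf (SE 0.164), 0.72 for Dbp (SE 0.224), 0.57 for Per2 (SE 0.188), 0.54 for Per3 and 0.45 for Ciart, and -0.05 for Nr1d1 and -0.29 for Per1. By edgeR 0 members were altered, as were 0% of all genes, with 2 at an unadjusted p under 0.05 and a fold over 1.5, Hlf and Dbp (2.70% of all genes). Per2, Tef, Per3 and Nr1d2 reached that p with a smaller fold. DESeq2 and limma on log2(FPKM + 1) each called 0.

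**Figure D2:**
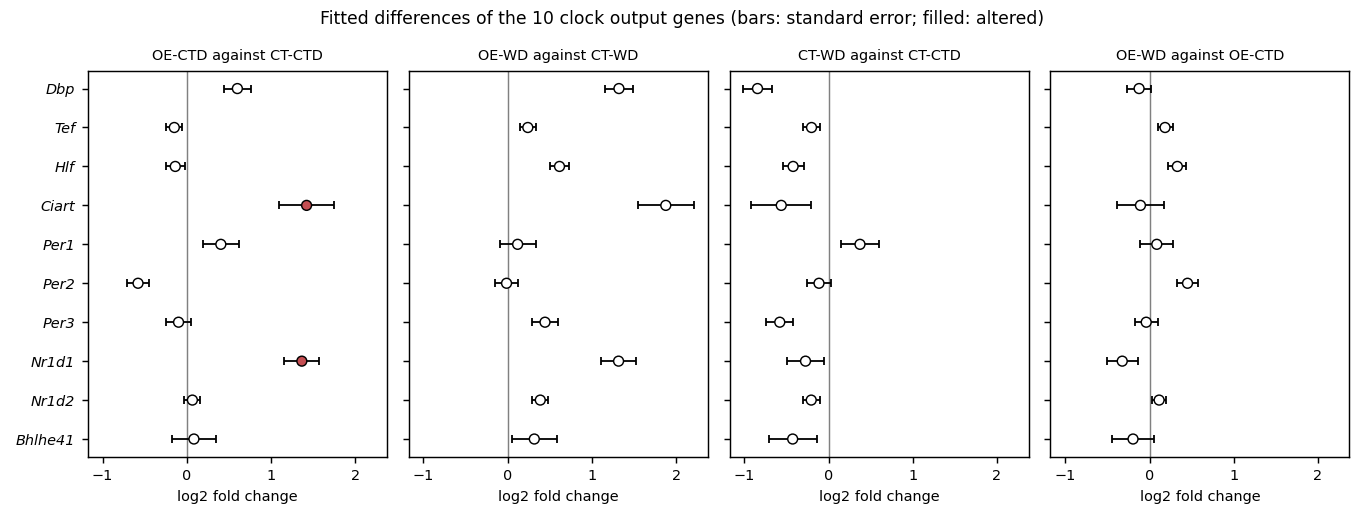
Each panel plots the fitted log2 fold change (horizontal axis) of the 10 clock output genes (vertical axis) in 1 comparison, with the standard error as bars; filled points were altered by edgeR, and the panel of OE-WD against CT-WD, which chose the members, is drawn with open points only. In the panel of OE-CTD against CT-CTD the filled points are Ciart at 1.42 and Nr1d1 at 1.37.

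Genes of the opposite phase were taken from a list. Arntl encodes Bmal1, the partner of Clock. Arntl had 13.96, 9.92 and 9.37 CPM in CT-CTD and 16.3, 24.1 and 37.3 CPM in CT-WD, against 10.8 to 12.5 CPM in OE-CTD and 9.08 to 15.4 CPM in OE-WD. The 3 CT-WD libraries were the highest for Arntl, in the inverse of their order for Dbp. Nfil3, a repressor that competes with Dbp for D-boxes, had 33.2, 99.4 and 226 CPM in CT-WD, where CT-CTD had 30.6 to 35.6 CPM.

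On the control diet, OE against CT, log2 fold changes were 0.10 for Arntl, -0.65 for Nfil3, -0.19 for Clock, -0.12 for Cry1 and 0.80 for Npas2, the last at under 1 CPM in each library. Their adjusted p by edgeR ran from 0.441 for Clock to 0.895 for Arntl, so that none of these passed the threshold. The SE of Arntl was 0.235, so that its difference was within its error on the diet on which Nr1d1 and Ciart were higher in OE. In CT-WD against CT-CTD, as a description, Arntl stood at 1.22 and Nfil3 at 1.86.

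The gap between Dbp and Arntl in log2 CPM puts both phases on 1 scale within a library. It averaged 2.97 ± 0.524 (SD, n = 3) in CT-CTD, 0.95 ± 0.934 (n = 3) in CT-WD, 3.46 ± 0.136 (n = 4) in OE-CTD and 3.35 ± 0.561 (n = 4) in OE-WD. In CT-WD it was 1.86, 0.99 and -0.0017 for replicates 1 to 3, all below the lowest of the other groups, 2.39 in CT-CTD 1. Across the 14 libraries Arntl and Dbp had r = -0.859 and rho = -0.644, and r = -0.553 without CT-WD 2 and CT-WD 3, the libraries farthest from the Dbp median, so that the size of the relation rests in part on these. With group means removed it was r = -0.8999.

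**Figure D3:**
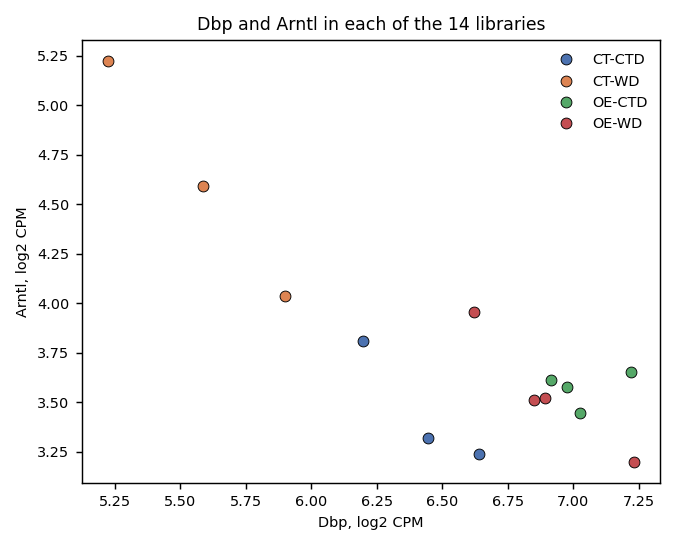
Each point is a library, with the log2 CPM of Dbp on the horizontal and that of Arntl on the vertical axis, coloured by group (3 libraries in each CT group, 4 in each OE group). The 3 CT-WD libraries lie at the upper left, with CT-WD 3 at equal levels of both genes, and all OE libraries lie to the right of the CT-WD libraries.

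Members varied together to unequal degrees. Across the 14 libraries Ciart had r = 0.926 with Dbp in log2 CPM (rho = 0.916, r = 0.881 without CT-WD 2 and CT-WD 3), Nr1d1 had r = 0.9003 (rho = 0.890, 0.817 without them) and Nr1d2 r = 0.840 (rho = 0.771, 0.641 without them). Per3 had r = 0.768 (rho = 0.547, 0.366 without them) and Hlf r = 0.715 (rho = 0.547, 0.369 without them). Bhlhe41 had r = 0.650 (rho = 0.398), which was -0.031 without those libraries and so rests on them. Tef with 0.321 (rho = -0.037, 0.131 without them), Per1 with 0.120 (rho = 0.376, 0.605 without them) and Per2 with -0.460 (rho = -0.363, -0.308 without them) did not follow Dbp closely. The libraries share groups, so these values are descriptions over 14 points in 4 groups. With group means removed, r with Dbp was 0.810 for Per3, 0.808 for Ciart, 0.696 for Hlf, 0.686 for Nr1d2, 0.683 for Nr1d1, 0.666 for Bhlhe41, -0.033 for Per1, -0.037 for Tef and -0.265 for Per2.

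Of 12736 other genes compared with Dbp in the same way, those most like it were Inppl1 (r = 0.960, rho = 0.943, 0.897 without CT-WD 2 and CT-WD 3), Cygb (r = 0.934, rho = 0.908, 0.891 without them), Xxylt1 (r = 0.929), Tnfrsf21 (r = 0.926) and Rgma (r = 0.924). Farthest in the opposite sense were Gdpd3 (r = -0.946, rho = -0.890, -0.859 without them), Trim63 (r = -0.926), Lpin1 (r = -0.920) and Rbp7 (r = -0.920). Trim63 encodes the muscle ubiquitin ligase MuRF1, and Cygb encodes cytoglobin.

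Other clock genes were compared between OE-CTD and CT-CTD, where 1.91% of all genes were altered. Their lists were chosen with earlier results of these data known, so the counts are a description. Of 9 further clock regulators tested, 1 was altered, Bhlhe40 (Dec1, the close relative of Bhlhe41), higher by 0.97 (SE 0.193, adjusted p = 0.0166 by edgeR), whereas Bhlhe41 itself stood at 0.08. Of 7 genes known to be under clock control in muscle, 2 were altered, both lower: Tbc1d1, a regulator of glucose uptake, at -0.73 (SE 0.134, adjusted p = 0.0112 by edgeR) and Myod1, a myogenic factor, at -0.69 (SE 0.160, adjusted p = 0.0346 by edgeR). Of 4 tested genes known in other tissues as targets of the PAR bZIP factors, 0 were altered by edgeR and 0 passed at an unadjusted p under 0.05 with a fold change over 1.5. Left out singly, libraries changed these calls, as the number of altered genes fell from 295 to as few as 64, without CT-CTD 3. Leaving out CT-CTD 1 raised the count of altered clock regulators to 2 of the 9, where 272 of 15858 genes were altered. Tbc1d1 was no longer altered without CT-CTD 3, Bhlhe40 without CT-CTD 2, CT-CTD 3, OE-CTD 2 or OE-CTD 3, and Myod1 without any 1 library except CT-CTD 1. None of the 3 was altered with the libraries summed. In OE-WD against CT-WD, as a description, Bhlhe40 stood at 0.98, Arntl2 at -0.64, Hk2 at 0.43, Myod1 at -0.55, Pdxk at 0.61 and Alas1 at -0.02.

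Per1 and Per2 also respond to glucocorticoids or to acute stimuli, and genes of both lists were altered between the same groups. Both lists were chosen with earlier results of these data known, so their counts are a description. Of 14 glucocorticoid-responsive genes tested, 3 were altered between OE-CTD and CT-CTD (1.91% of all genes), all lower: Fkbp5 at -2.29 (adjusted p = 0.00976 by edgeR), Fbxo32 at -1.04 (adjusted p = 0.0345) and Zbtb16 at -1.02 (adjusted p = 0.00575). Between OE-WD and OE-CTD 1 was altered (0.00647% of all genes), Zbtb16 at 1.23 (adjusted p = 0.00559 by edgeR). The mean of Zbtb16 was 86.8 CPM in CT-CTD, 145 CPM in CT-WD, 42.7 CPM in OE-CTD and 100.2 CPM in OE-WD as labelled, so that it was higher in OE-WD than in OE-CTD and lower in OE-WD than in CT-WD (log2 fold change -0.53). Under exchanged names, each of these directions would belong to the other of the 2 comparisons. The study's text gives Zbtb16 as higher in OE-WD than in CT-WD. That is the direction under exchanged names and not the one under the labels. Of 9 immediate early genes, 2 were altered between OE-CTD and CT-CTD (1.91% of all genes), both higher: Junb at 1.56 (adjusted p = 0.00704 by edgeR) and Ier2 at 1.22 (adjusted p = 0.0386). With DESeq2 5 of the 9 were altered (488 of 27899 genes). The absence of a filter on low counts also gave 5 (570 of 27899 genes), as did the replicate block, which leaves out OE-CTD 4 (511 of 14655 genes). Either limma setting gave 1. Of the calls between OE-CTD and CT-CTD, that of Zbtb16 held whichever single library was left out, those of Fkbp5 and Junb were lost without CT-CTD 3, that of Ier2 without any 1 library except OE-CTD 4, and that of Fbxo32 without any 1 library, and none held with the libraries summed. Zbtb16 was no longer altered between OE-WD and OE-CTD without OE-CTD 1 or with the libraries summed. In CT-WD against CT-CTD, as a description, 14 of 14 glucocorticoid-responsive genes were higher, with a median of 0.52. So were 9 of 9 immediate early genes, with a median of 1.004. By edgeR 0 of either list were altered, and 6 and 7 passed at an unadjusted p under 0.05 with a fold change over 1.5 (3.05% of all genes). Without the filter on low counts 6 and 5 were altered (88 of 27899 genes). With DESeq2 3 and 0 were altered (26 of 27899 genes), and without CT-WD 1 these were 2 and 0 (41 of 15828 genes). In OE-WD against OE-CTD 14 of 14 glucocorticoid-responsive genes (median 0.22) and 4 of 9 immediate early genes were higher. In OE-CTD against CT-CTD these were 3 of 14 and 8 of 9 (median 0.87). In OE-WD against CT-WD, as a description, 13 of 14 glucocorticoid-responsive genes were lower, with a median of -0.78. By edgeR 4 of them were altered (0.563% of all genes). That count was 10 without CT-WD 1, and 0 without CT-WD 2 or with the replicate block. Of the 9 immediate early genes 7 were lower, with a median of -0.11, and 0 were altered. Fkbp5 stood at -1.91, Trim63 at -1.43, Mt1 at -1.21, Pdk4 at -1.08, Klf9 at 0.05 and Egr2 at 0.58. Atf3 stood at -2.45, which rests on CT-WD 3 at 307 CPM, and at -0.05 without that library. The part of these responses in the levels of the clock output genes was not tested.

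Markers of other cell types differed between the groups in summed level. The summed level of 8 endothelial genes, of which Cdh5 was the most abundant, was 65.0 to 67.0 FPKM in CT-CTD, 70.6 to 86.6 FPKM in CT-WD, 75.0 to 82.8 FPKM in OE-CTD and 85.0 to 90.9 FPKM in OE-WD. That of 6 macrophage genes, led by C1qa, was 14.9 to 25.7 FPKM in CT-CTD and 30.8 to 42.9 FPKM in OE-CTD, and that of 4 tendon genes, led by Fmod, was 18.1 to 53.0 FPKM and 73.0 to 146 FPKM. On the western diet both overlapped between the genotypes, with 19.8 to 43.8 FPKM in CT-WD and 26.0 to 43.1 FPKM in OE-WD for macrophage genes, and 15.4 to 122 FPKM and 69.6 to 206 FPKM for tendon genes. Fmod alone made up 74.7% of the tendon sum. On the control diet Fmod, Tnmd and Comp were higher in OE without overlap, as were 8.73% of all genes. Scx, also a tendon gene, overlapped, with 5.66 to 12.3 CPM in CT-CTD and 8.63 to 11.4 CPM in OE-CTD. The library CT-WD 1 stood apart from CT-WD 2 and CT-WD 3, with 122 FPKM for tendon genes against 15.7 and 15.4 FPKM, and 44.1 FPKM for epidermal genes against 5.38 and 5.45 FPKM. Other lists overlapped between the control diet groups, with 86.0 to 230 FPKM and 59.2 to 130 FPKM for 6 adipocyte genes, led by Fabp4, 3.37 to 21.6 FPKM and 2.58 to 18.5 FPKM for 6 epidermal genes, led by Krt5, and 259 to 381 FPKM and 170 to 452 FPKM for 5 blood genes, led by Hba-a1. Summed levels of 7 slow fibre genes, led by Myl3, were 1471 to 1967 FPKM and 1937 to 2234 FPKM, and those of 7 fast fibre genes, led by Tnnt3, 44310 to 50211 FPKM and 41601 to 54779 FPKM. No gene of these lists was at 0 in all libraries, and the part of these cell types in the result was not tested. The level of the human transgene was not measured from these tables.

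Hlf, Per1 and Nr1d1, 3 of the members, lie on chromosome 11, and each of the others has a chromosome to itself. In GRCm38, Dbp (ENSMUSG00000059824) spans 45705088 to 45710203 on the plus strand of chromosome 7, Ciart (ENSMUSG00000038550) 95878503 to 95882251 on the minus strand of chromosome 3 and Nr1d1 (ENSMUSG00000020889) 98767932 to 98775333 on the minus strand of chromosome 11. All 10 members are annotated as protein coding.

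Exons of another gene lie on the opposite strand of some members. Nr1d1 shares 263 exon bases (8.55% of its exon length) with Thra, which encodes a thyroid hormone receptor and had a mean of 52.5 CPM. Dbp shares 539 exon bases (18.0%) with Sphk2, a sphingosine kinase gene with a mean of 18.0 CPM. Thra had a log2 fold change of 0.34 (SE 0.0909, adjusted p = 0.0587 by edgeR) and Sphk2 of -0.05 (SE 0.118, adjusted p = 0.891 by edgeR) between OE-CTD and CT-CTD, both smaller than those of their overlapping members. The strand setting of the counting is not given. Tef and Bhlhe41 overlap the antisense gene Gm17597 and the gene Gm43909, at means of 0.0963 and 0.176 CPM. Ciart shares no exon bases with another gene of the annotation.

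The stretch before the start of transcription by RefSeq was searched for clock motifs on both strands. It held 250 bases upstream of each RefSeq start (GRCm38.p6), for 9 of the 10 members with 11 promoters in all. Per2 has no entry. By GENCODE, part of these windows lies in exons, with 159 bases for Dbp, 138 for Bhlhe41 and all 250 for Tef at 1 of its starts. The E-box CACGTG occurred in promoters of Tef, Ciart, Per1 and Bhlhe41, and in 6.02% of all 32851 promoters. The E-box variant CACGTT occurred in Nr1d1 (3.85% of all), the D-box TTATGTAA in Per3 (0.819%), the CRE TGACGTCA in Hlf (1.55%) and the ROR element letters AGGTCA in Per1 and Nr1d2 (14.02%). The D-box variant TTACGTAA (0.113%) occurred in none of the 11, and Dbp held none of these motifs in this window. Such a match is a description and not a site of binding.

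The promoters of Ciart and Nr1d1 are shown since these genes were altered between OE-CTD and CT-CTD, and those of Per3 and Hlf as examples with D-boxes and a CRE. Motifs are in capitals, each sequence is on the minus strand, 5′ to 3′, at chr3:95882252-95882478 for Ciart, chr11:98775378-98775627 for Nr1d1, chr4:151044666-151044915 for Per3 and chr11:90390918-90391167 for Hlf. Ciart holds 3 E-boxes, Per3 holds 2 D-boxes, and in Nr1d1 the E-box variant reads on the reverse strand.
Ciart: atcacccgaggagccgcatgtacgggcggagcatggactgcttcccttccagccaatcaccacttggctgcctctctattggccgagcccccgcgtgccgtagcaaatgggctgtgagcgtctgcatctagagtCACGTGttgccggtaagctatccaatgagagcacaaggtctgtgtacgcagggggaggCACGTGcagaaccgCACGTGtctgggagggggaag
Nr1d1: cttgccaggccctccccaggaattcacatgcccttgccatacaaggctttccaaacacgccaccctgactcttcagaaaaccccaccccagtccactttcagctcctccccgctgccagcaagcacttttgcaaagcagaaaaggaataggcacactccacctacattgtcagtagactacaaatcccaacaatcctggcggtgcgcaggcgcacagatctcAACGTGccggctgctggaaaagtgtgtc
Per3: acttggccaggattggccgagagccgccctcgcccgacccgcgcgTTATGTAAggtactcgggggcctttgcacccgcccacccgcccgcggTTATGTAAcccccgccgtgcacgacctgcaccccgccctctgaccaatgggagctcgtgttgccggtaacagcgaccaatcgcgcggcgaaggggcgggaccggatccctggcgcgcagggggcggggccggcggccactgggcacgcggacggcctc
Hlf: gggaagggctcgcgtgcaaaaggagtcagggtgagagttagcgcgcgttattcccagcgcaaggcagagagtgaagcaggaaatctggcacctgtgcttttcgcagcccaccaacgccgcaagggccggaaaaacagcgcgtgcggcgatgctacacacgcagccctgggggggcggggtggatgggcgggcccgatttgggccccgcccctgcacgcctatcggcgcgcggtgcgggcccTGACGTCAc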

How the data were processed

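Bulk RNA-seq of skeletal muscle in 14 libraries was grouped by label. Raw counts, reads per Ensembl gene, were deposited by the authors, together with FPKM values, scaled by the authors to gene length and to a library total with a factor per library. The submitters' notes name HISAT2 2.0.5, featureCounts 1.5.0-p3 and mm10. Of 54409 gene identifiers shared with GENCODE M21 (GRCm38), 98.3% had the same chromosome, start and end. Reads were not analysed here, and 0 sample columns were left unmapped.

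Counts were fitted with edgeR 4.0.16 in R 4.3.3 (TMM, filterByExpr, quasi-likelihood test, a mean for each of the 4 groups), with p-values adjusted by the Benjamini-Hochberg method over the 15458 genes tested in each comparison. The biological coefficient of variation was 17.0%, and depth was 21833839 to 28519159 counts per library. Log2 CPM used a prior count of 2. Alternatives were DESeq2 1.42.0, limma 3.58.1 on log2(FPKM + 1) and log2(FPKM + 0.1) for genes with a mean of at least 0.1 FPKM, no filter on low counts, only the groups compared, replicate numbers as a block, libraries of shared code digits summed, each library left out in turn, and an exchange of the names CT-WD and OE-CTD, chosen after the data were seen. The replicate block left out OE-CTD 4 or OE-WD 4 in the genotype comparisons, and both in the interaction. The tests were tried on simulated data.

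The genes named are all members, genes of the Arntl phase, of each other list those altered in any comparison and those with the largest and the smallest log2 fold change in OE-WD against CT-WD, and the genes with a mean of at least 1 CPM most and least like Dbp, up to 5 of each. Some genes and lists under this rule are left out. Marker genes are named for the check of cell types. The members and lists were chosen with earlier results of these data known.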

Additional observations from a re-analysis of the deposited data

Results flagged for a closer look

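Hlf stood on opposite sides of its control diet libraries in the genotypes: all CT-WD libraries lay below all CT-CTD libraries and all OE-WD libraries above all OE-CTD libraries. The OE response minus the CT response was 0.75 on the log2 scale (SE 0.164, adjusted p = 0.675 by edgeR, 0.0705 to 1 over the alternatives that kept the group names), which did not pass the threshold, and it holds the libraries on which the members were selected.

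In groups of 4, the gap of the extreme library to its neighbour was compared with the range of the group. Per2 in OE-WD had 1 library far from the others, OE-WD 3, at 26.7 CPM, with a gap of 0.932 of the range. Nr1d2 in OE-CTD had OE-CTD 2 far above the others, at 129 CPM, with a gap of 0.943 of the range. Chance gives such a gap in about 1 in 20 groups, and 2 of the 20 groups examined had one.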

How the results depend on the processing

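Of 50 log2 fold changes, 10 members in 5 comparisons, 41 kept their sign under each setting that kept the group names and 9 changed sign under at least 1. If CT-WD and OE-CTD carry each other's name, OE-CTD against CT-CTD would take the values labelled CT-WD against CT-CTD, -0.84 for Dbp, -0.27 for Nr1d1 and -0.56 for Ciart. For counts of altered members, the exchange gave 2 between CT-WD and CT-CTD, 4 between OE-WD and OE-CTD, 0 between OE-CTD and CT-CTD, 0 between OE-WD and CT-WD and 0 in the interaction. Between CT-WD and CT-CTD, where the count was 0, DESeq2 and the absence of a filter each gave 1, and leaving out a library 0 to 1. Between OE-CTD and CT-CTD, where it was 2, DESeq2, the absence of a filter and only the groups compared each gave 3, limma on log2(FPKM + 1) 2 and on log2(FPKM + 0.1) 1, the replicate block 4, the summing of libraries with shared code digits 0, and leaving out a library 1 to 3. Between OE-WD and CT-WD, where it was 4, only the groups compared gave 0, limma on log2(FPKM + 1) 3 and on log2(FPKM + 0.1) 2, the replicate block 0, the summed libraries, which leave OE-WD 1 library, 0, and leaving out a library 1 to 6. The counts between OE-WD and OE-CTD and in the interaction were 0 in the other settings. The causes were not tested.

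Leaving out single libraries moved these log2 fold changes across 0: between OE-WD and OE-CTD, Ciart from -0.27 to 0.045, Per1 from -0.044 to 0.18 and Per3 from -0.094 to 0.036; between OE-WD and CT-WD, Per1 from -0.057 to 0.22 and Per2 from -0.13 to 0.10; between CT-WD and CT-CTD, Per2 from -0.23 to 0.0059; between OE-CTD and CT-CTD, Bhlhe41 from -0.033 to 0.16; and in the interaction, Nr1d1 from -0.23 to 0.27 and Bhlhe41 from -0.016 to 0.81. With the replicate block Per1 stood at -0.0085 between OE-WD and CT-WD and Nr1d1 at 0.018 in the interaction, where limma on log2(FPKM + 1) gave 0.011 and on log2(FPKM + 0.1) 0.022. Among the members, depth limits Ciart most, which had 29 to 385 counts per library.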
